A study of Homo sapiens with 21 samples.

Results

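KAT14 and 9 genes that encode other subunits of the ATAC histone acetyltransferase complex were followed through all 7 treatment groups of an RNA-seq experiment in Hs578T cells. These 10 genes were taken by name from the 28395 genes of the count table, and KAT14 was chosen by its measured log2 fold changes (log2 FC) against DMSO, which were among the strongest falls with both combination treatments and with 1.0 μM THZ531. Its values in those 3 groups are therefore given as a description without a test. The 9 partners, KAT2A, KAT2B, TADA2A, TADA3, YEATS2, ZZZ3, MBIP, WDR5 and DR1, belong to the complex by name and were tested. All 10 passed the filter on low counts, as 10 of the 16036 genes tested.

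Hs578T is a wild-type human triple-negative breast cancer cell line with mesenchymal features. Cells were collected after 8 h with the vehicle DMSO, with 0.1 μM THZ531, 3.16 μM lapatinib or 1.0 μM nilotinib alone, with 0.1 μM THZ531 plus 3.16 μM lapatinib, with 0.1 μM THZ531 plus 1.0 μM nilotinib, or with 1.0 μM THZ531 alone, in 3 replicates per group. THZ531 covalently inhibits CDK12 and CDK13, which modify RNA polymerase II as it elongates transcripts, and lapatinib and nilotinib are tyrosine kinase inhibitors that also block the drug efflux transporter ABCG2. The comparison asks how far the combination treatments and the high dose of THZ531 lower KAT14 and whether the other subunit genes move with it. The 21 polyA libraries held between 97612207 and 112229052 counts, and log2 counts scaled to library size (CPM) correlated at 0.990 to 0.994 between replicates. The mesenchymal markers were present in every library, with VIM at 6395 CPM or more and ZEB1 at 185 CPM or more, while ESR1 did not exceed 0.502 CPM and EPCAM did not exceed 0.0875 CPM. The 3 replicates of a group came from independent experiments, per the study's description of its RNA samples, so the p-values measure the spread between experiments.

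ATAC, named for its Ada2a subunit, is a coactivator complex that acetylates histone tails at active promoters and enhancers. Its catalytic subunit is either KAT2A or KAT2B, a pair of close paralogs held by the adaptors TADA2A, TADA3 and SGF29, and KAT14 is a further subunit with an acetyltransferase domain of its own. KAT2A, KAT2B, TADA3 and SGF29 are shared with the SAGA coactivator complex, whereas KAT14, TADA2A, YEATS2, ZZZ3, MBIP and DR1 are not, and WDR5 also serves the COMPASS histone methyltransferases.

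KAT14 (NCBI gene 57325) lies at chr20:18137153-18188035 of GRCh38 on the plus strand and has 11 exons. PET117, which encodes a mitochondrial assembly factor of cytochrome c oxidase and is no part of ATAC, lies at chr20:18137863-18143169 on the same strand, and 901 of the 5018 exonic bases of KAT14 also belong to PET117. One of the 4 KAT14 start windows in RefSeq (GRCh38.p14) is identical to that of PET117, with the start at position 18137863. Its sequence at chr20:18137613-18137892 is shown because both genes can begin there and their counts are compared below. The window of SGF29 at chr16:28553670-28553949 is shown beside it, since SGF29, an ATAC adaptor outside the 10 genes, had the next deepest fall among the well-expressed subunit genes. Both are on the plus strand, in lower case for the 250 bases before the start and in capitals for the first 30 transcribed bases.
KAT14 and PET117: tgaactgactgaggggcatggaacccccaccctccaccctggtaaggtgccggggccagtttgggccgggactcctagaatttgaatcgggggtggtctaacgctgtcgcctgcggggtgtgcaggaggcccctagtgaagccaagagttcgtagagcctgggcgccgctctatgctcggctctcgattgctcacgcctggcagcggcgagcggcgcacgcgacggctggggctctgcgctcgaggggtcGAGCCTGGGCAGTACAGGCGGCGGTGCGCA
SGF29: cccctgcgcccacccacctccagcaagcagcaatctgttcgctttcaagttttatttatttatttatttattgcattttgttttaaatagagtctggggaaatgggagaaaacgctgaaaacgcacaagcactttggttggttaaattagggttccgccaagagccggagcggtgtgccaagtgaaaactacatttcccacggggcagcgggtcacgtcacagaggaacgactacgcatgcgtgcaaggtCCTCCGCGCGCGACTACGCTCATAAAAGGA
The full 300-base windows, with 28 CpG dinucleotides for KAT14 and PET117 and 20 for SGF29, held none of 6 motifs searched on both strands. Among 35116 promoter windows of the same length, TATAAA occurred in 11.5%, CCAAT in 34.6%, GGGCGG in 45%, CCGGAAG in 10.3%, CACGTG in 7.26% and TGACGTCA in 1.85%. The other 3 KAT14 windows held some of these motifs, among them CCAAT in 2 and GGGCGG in 2, so the absence concerns the printed start alone.

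KAT14 mRNA was reduced to a small remainder by all 3 strong treatments. Its level was 15.3, 16.1 and 16.0 CPM in the DMSO libraries. The combination with lapatinib left 0.459, 0.481 and 0.490 CPM, that with nilotinib 0.389, 0.616 and 0.517 CPM, and the high dose of THZ531 alone 1.02, 1.19 and 0.995 CPM. Every library of these groups lay below every DMSO library, and both combinations lay below the high dose alone. The mean fell to 3.02%, 3.21% and 6.76% of DMSO, which is 33.1-fold, 31.1-fold and 14.8-fold lower in the fit. On the log2 scale the changes were −5.05 (SE 0.11), −4.96 (SE 0.11) and −3.88 (SE 0.10), placing KAT14 at rank 25, 23 and 23 from the bottom among the 16036 tested genes. The remaining signal rested on 42 to 44 counts per library with lapatinib and THZ531 and on 36 to 57 with nilotinib and THZ531, against 1862 to 1903 in DMSO. Some of these remaining counts may be reads of PET117, which shares exonic bases with KAT14. In bulk libraries, fewer cells with the transcript and less transcript per cell cannot be told apart.

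The lower dose and the single inhibitors, which were not used to pick the gene, gave a graded picture. With 0.1 μM THZ531 alone, KAT14 was at 9.41, 9.89 and 9.97 CPM, below all DMSO libraries and at 61.7% of their mean. This log2 FC of −0.70 (SE 0.09) passed the test (edgeR quasi-likelihood, Benjamini-Hochberg adjusted p = 6.97e-05), although it shares its DMSO libraries with the comparisons that picked the gene. In the same comparison 4.31% of all tested genes were called lower, and KAT14 sat at percentile 6.02 of all log2 FCs. Lapatinib left KAT14 at 15.8, 16.1 and 16.2 CPM and nilotinib at 17.3, 15.6 and 16.2 CPM, within or just above the DMSO range. Neither change passed the test, with 95% intervals of the log2 FC from −0.16 to 0.20 for lapatinib and from −0.13 to 0.23 for nilotinib. As a description, the combinations departed from the sum of their single agents by −4.37 with lapatinib and −4.31 with nilotinib on the log2 scale. KAT14 was also lower with the combinations than with 1.0 μM THZ531, by log2 FCs of −1.16 and −1.07, and the combinations differed from each other by −0.09. These values compare groups that were used to pick the gene and are likewise given without a test.

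**Figure D1:**
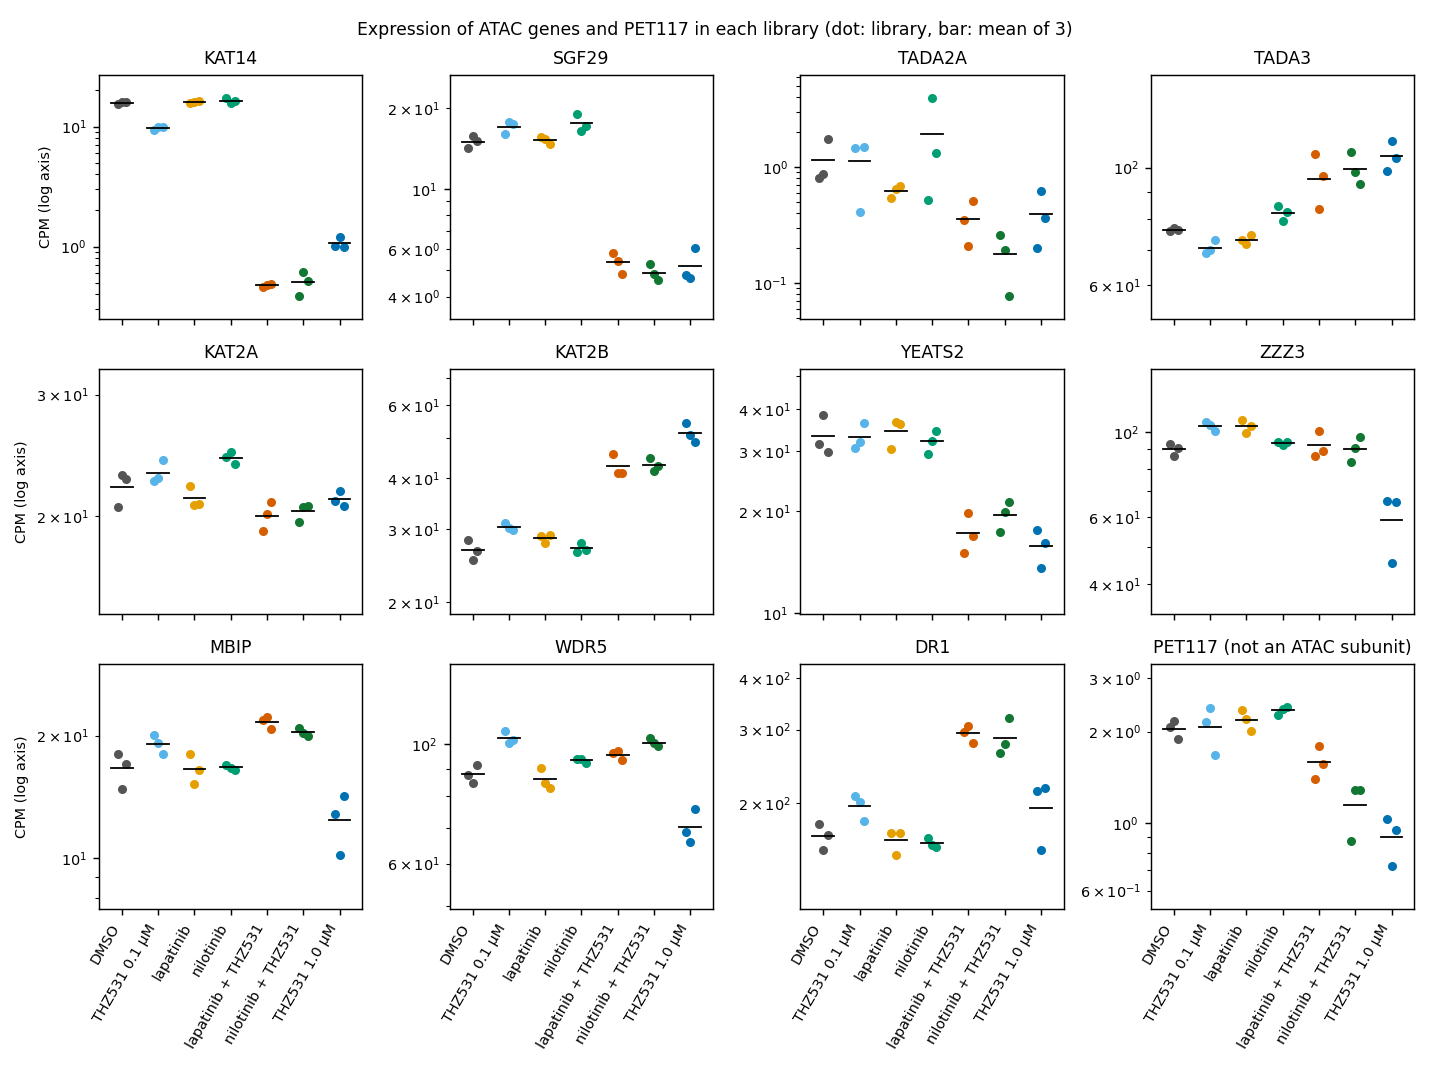
Expression of KAT14, SGF29, the 9 partner genes and PET117 in each of the 21 libraries, as CPM on a log axis that differs between panels, with 1 dot per library and a bar at the mean of 3. KAT14 drops from about 15.8 CPM in DMSO to 0.477 CPM with lapatinib and THZ531, while KAT2B and DR1 rise in both combinations and ZZZ3, MBIP and WDR5 fall with 1.0 μM THZ531.

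In the main fit the partners differed in direction. With only 9 genes, their counts were not far from the shares of all tested genes, so they are given as a description. With lapatinib and THZ531, 2 of the 9 partners were lower (TADA2A and YEATS2) and 4 were higher (KAT2B, TADA3, MBIP and DR1) at an adjusted p under 0.05, where 37.8% of all tested genes were lower and 34.3% higher. With nilotinib and THZ531, 2 were lower and 5 higher, with WDR5 added to the same 4, against 37.3% and 33.7% of all genes. With 1.0 μM THZ531, 5 were lower (TADA2A, YEATS2, ZZZ3, MBIP and WDR5) and 2 higher (KAT2B and TADA3), against 36.8% and 33.1%. The median log2 FC of the 9 partners was 0.12, 0.20 and −0.33 in these comparisons, and that of all tested genes was −0.01 in each. Past a log2 FC of 1, only TADA2A was lower with either combination, and TADA2A and YEATS2 were lower with the high dose, while none was higher. The background for those calls was 21.3%, 20.8% and 18.9% lower and 7.9%, 6.54% and 5.77% higher. For none of the 9 was the fall as deep as that of KAT14, whose place at the bottom was set by its choice.

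These directions depend on how the libraries are scaled. The main values are scaled by the trimmed mean of M-values (TMM), which assumes that most genes do not change. Scaling to the 13 mRNAs encoded by mitochondrial DNA, whose share of counts was 1.25% ± 0.0895 in DMSO and 1.60% ± 0.139 with lapatinib and THZ531 (SD, n = 3), moved the median of all genes by −0.68, −0.62 and −0.54 in the 3 strong treatments. Under it no partner was called higher with either combination, 6 and 5 were lower, and with 1.0 μM THZ531 6 were lower and 1, KAT2B, was higher. Upper-quartile scaling left 3 partners lower with 1.0 μM THZ531, against 5 with TMM, and 0 lower past a log2 FC of 1. Which scaling is closer to the RNA content per cell was not tested. The falls of KAT14, SGF29, TADA2A and YEATS2 kept their direction under all 5 scalings, whereas the rises of TADA3, MBIP, WDR5 and, with lapatinib and THZ531, KAT2B turned to negative values with the mitochondrial mRNAs.

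**Figure D2:**
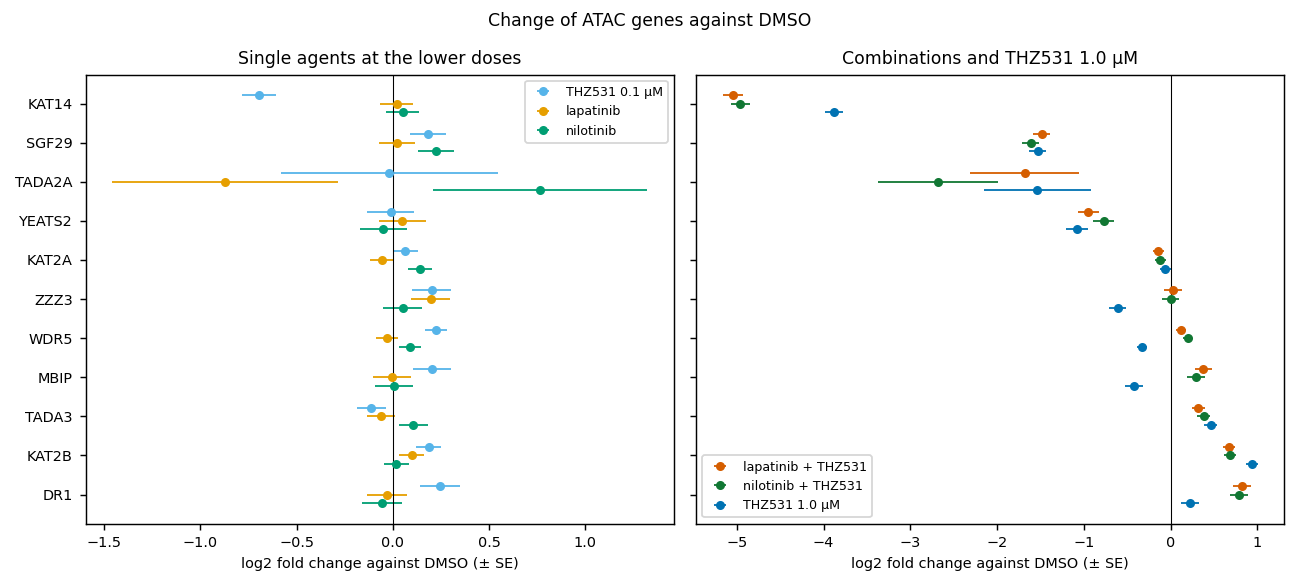
Log2 fold change against DMSO with its SE for KAT14, SGF29 and the 9 partners, on the left for the single agents at the lower doses and on the right for both combinations and 1.0 μM THZ531 (the x axes differ). KAT14 stands at −5.05, −4.96 and −3.88 on the right, and no partner lies below −2.68.

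The catalytic paralogs parted from each other. KAT2A (chr17:42113111-42121367) stood at 20.7, 23 and 22.7 CPM in DMSO and at 19, 20.2 and 21 CPM with lapatinib and THZ531, with overlapping groups. Its log2 FC was −0.14 (adjusted p = 0.0547), −0.12 (adjusted p = 0.100) and −0.06 (adjusted p = 0.403, edgeR quasi-likelihood) in the 3 strong treatments, so no change was called. KAT2B (chr3:20040446-20154404), the paralog also known as PCAF, rose from 28.3, 25.3 and 26.6 CPM in DMSO to 45.7, 41.1 and 41.2 CPM with lapatinib and THZ531. It stood at 44.6, 41.6 and 42.8 CPM with nilotinib and THZ531 and at 54.3, 50.7 and 48.8 CPM with 1.0 μM THZ531. All 9 of these libraries were above all DMSO libraries, with log2 FCs of 0.67, 0.69 and 0.94 (SE 0.06 each; adjusted p = 1.24e-08, 1.02e-08 and 1.33e-10, edgeR). KAT2B was the partner with the largest rise at 1.0 μM THZ531, and there the call held under each of the 5 scalings. In the combinations it was not called with mitochondrial scaling.

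Within a library the ratio of both paralogs does not depend on scaling. The share of KAT2B in the counts per kb of exon of KAT2A and KAT2B together was 46.7% ± 2.82 in DMSO (SD, n = 3; 44.4% to 49.8%). The combinations raised it to 60.6% ± 2.55 (lapatinib) and 60.5% ± 1.51 (nilotinib), and the high dose of THZ531 to 63.7% ± 1.28, with no overlap with DMSO. The exact two-sided permutation test of 3 against 3 libraries gave p = 0.1 for each, the smallest value that this design allows. For 0.1 μM THZ531, lapatinib and nilotinib alone the shares were 48.8%, 49.4% and 44.6%, each with an exact permutation p of 0.3. Part of KAT2A's exons, 405 of 3775 bases, overlaps another gene model on the same strand, which could draw on its reads.

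**Figure D3:**
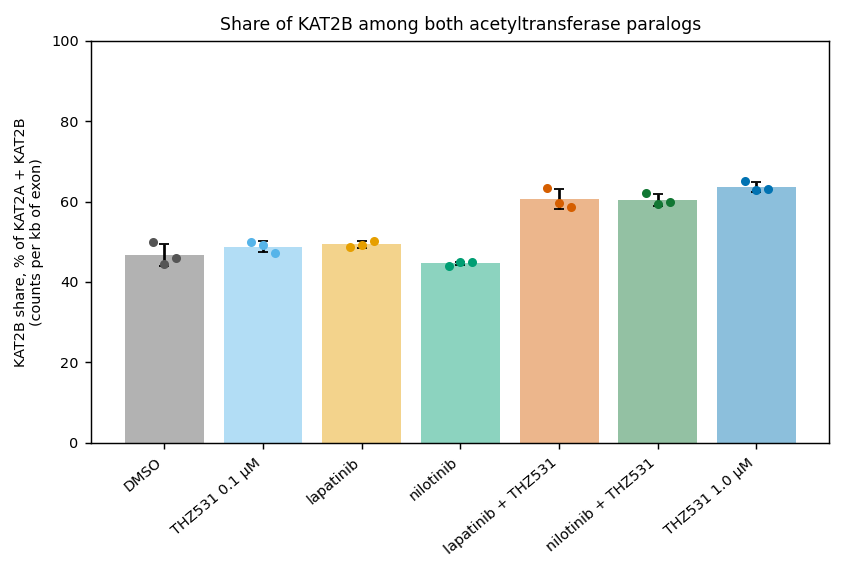
Share of KAT2B in the summed KAT2A and KAT2B counts per kb of exon, in percent, with bars at the mean, error bars of 1 SD and 1 dot per library. The 9 libraries of the combinations and of 1.0 μM THZ531 lie between 58.7% and 65.1%, and the 12 others lie at or below 50.3%.

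Among the adaptors that hold the catalytic subunit, the genes went different ways. SGF29 (chr16:28553920-28591790), whose protein binds methylated histone H3 through a tandem Tudor domain, was at 14.2, 15.7 and 15.1 CPM in DMSO and at 5.79, 5.43 and 4.87 CPM with lapatinib and THZ531. Levels were 5.28, 4.84 and 4.60 CPM with nilotinib and THZ531 and 4.81, 4.70 and 6.05 CPM with 1.0 μM THZ531, all far below DMSO. The log2 FCs of SGF29 were −1.48, −1.61 and −1.53 (SE 0.10 each; edgeR adjusted p = 3.84e-11, 1.30e-11 and 3.79e-11), about the same for all 3 treatments. With 0.1 μM THZ531 alone SGF29 stood at 0.18 on the log2 scale (adjusted p = 0.293), where KAT14 had fallen.

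TADA3 (chr3:9779967-9793011), the adaptor shared by ATAC and SAGA, rose modestly. It was at 75.8, 76.9 and 76.3 CPM in DMSO and at 106, 83.7 and 96.4 CPM with lapatinib and THZ531, above DMSO in each library. Its log2 FC was 0.32, 0.38 and 0.46 in the 3 strong treatments (SE 0.07 each; edgeR adjusted p = 0.000699, 0.000129 and 1.62e-05), and it turned to −0.36, −0.23 and −0.08 when scaled to mitochondrial mRNAs. The exons of TADA3 overlap those of OGG1 and ARPC4 on the other strand by 356 and 211 bases, and unstranded counts cannot separate them.

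TADA2A (chr17:37406886-37479725), the adaptor that distinguishes ATAC from SAGA, was the least expressed subunit gene and the least certain. Its DMSO libraries held 0.806, 0.872 and 1.75 CPM, and those with nilotinib and THZ531 held 0.259, 0.194 and 0.077 CPM. With nilotinib alone they ranged from 0.525 to 3.98 CPM, wider than many of the changes tested. TADA2A was called lower at a log2 FC of −1.68 (SE 0.63, adjusted p = 0.0221), −2.68 (SE 0.69, adjusted p = 0.00173) and −1.53 (SE 0.62, adjusted p = 0.0333, edgeR). The first of these calls was lost when DMSO replicate 3 or replicate 1 or 2 of the combination was left out (adjusted p up to 0.114), and the last when DMSO replicate 3 or replicate 1 or 3 of the high dose was left out (up to 0.159). With 7 counts in its lowest library, TADA2A did not pass a filter of at least 10 counts in every library.

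YEATS2 (chr3:183697797-183812624), whose YEATS domain reads acylated histone H3, was the well-expressed partner that fell most. It was at 31.6, 38.2 and 29.8 CPM in DMSO, and the combination with lapatinib left it at 15, 19.7 and 16.9 CPM. With nilotinib and THZ531 it was at 17.3, 19.9 and 21.2 CPM, and with 1.0 μM THZ531 at 17.5, 13.6 and 16.0 CPM. No treated library reached the DMSO range, and the level was 51.8%, 58.6% and 47.3% of DMSO. The log2 FCs of YEATS2 were −0.95, −0.77 and −1.08 (SE 0.12 each; edgeR adjusted p = 9.09e-07, 1.33e-05 and 1.99e-07). An antisense gene, YEATS2-AS1, overlaps 1164 of its 10232 exonic bases.

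DR1, the beta subunit of the transcription repressor NC2 (chr1:93345907-93369493), was the partner with the largest rise in the combinations. Its level was 178, 154 and 168 CPM in DMSO, 297, 307 and 279 CPM with lapatinib and THZ531 and 264, 278 and 320 CPM with nilotinib and THZ531, with clear separation. The log2 FCs were 0.82 and 0.79 (SE 0.10 each; edgeR adjusted p = 6.97e-07 and 1.31e-06). Scaled to mitochondrial mRNAs, the rise of DR1 was not called in either combination. With 1.0 μM THZ531 DR1 was at 213, 154 and 217 CPM, overlapping DMSO, at a log2 FC of 0.23 (adjusted p = 0.0581). Replicate 2 stood apart there, and without it the value was 0.37 (edgeR adjusted p = 0.000801).

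With TMM scaling, ZZZ3, MBIP and WDR5 were lower with the high dose and not with the combinations. Scaled to mitochondrial mRNAs, each of them stood below DMSO in both combinations as well. ZZZ3 (chr1:77562416-77683398), a zinc finger protein that reads the histone H3 tail, was at 93.1, 86.4 and 90.9 CPM in DMSO and at 66.2, 45.5 and 65.5 CPM with 1.0 μM THZ531. It stayed at 86.4, 101 and 89.3 CPM with lapatinib and THZ531 and at 83.3, 90.5 and 96.7 CPM with nilotinib and THZ531, within or near the DMSO range. MBIP (chr14:36298564-36320637), a binding partner of the kinase MAP3K12, was at 18.1, 14.8 and 17.0 CPM in DMSO, at 12.8, 10.2 and 14.2 CPM with the high dose and at 21.9, 22.2 and 20.7 CPM with lapatinib and THZ531. It thus lay below DMSO in 1 treatment and above it in the other. WDR5 (chr9:134135199-134159968), a WD-repeat scaffold, was at 87.7, 84.7 and 91.4 CPM in DMSO, at 68.8, 65.9 and 75.8 CPM with the high dose and at 96.4, 97.2 and 93.4 CPM with lapatinib and THZ531. The falls with 1.0 μM THZ531 were −0.61 for ZZZ3 (SE 0.10, adjusted p = 2.44e-05), −0.42 for MBIP (SE 0.10, adjusted p = 0.000913) and −0.33 for WDR5 (SE 0.06, adjusted p = 4.51e-05, edgeR).

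The difference between the combinations and the high dose was tested directly. With lapatinib and THZ531 against 1.0 μM THZ531, ZZZ3, MBIP, WDR5 and DR1 were higher by log2 FCs of 0.64, 0.80, 0.45 and 0.59 (edgeR adjusted p between 6.69e-06 and 0.00022). With nilotinib and THZ531 against the high dose, the values were 0.61, 0.71, 0.52 and 0.56 (adjusted p between 2.28e-06 and 0.000467). KAT2B was lower by log2 FCs of −0.27 and −0.25 (adjusted p = 0.00366 and 0.0062), so 4 of 9 partners were higher and 1 lower in each comparison, and 0 lay past a log2 FC of 1. The KAT2B calls were lost when only the groups compared were fitted (adjusted p = 0.0961 and 0.111), and the second also with mitochondrial scaling (edgeR adjusted p = 0.134). Of all tested genes, 12.8% were higher and 16.1% lower in the first and 11.2% and 13% in the second, with 1.32% and 1.82%, and 0.898% and 1.66%, past a log2 FC of 1. Replicate 2 of the high dose had the lowest value for ZZZ3, MBIP, WDR5 and DR1. Without it the differences for lapatinib and THZ531 were 0.48, 0.67, 0.40 and 0.45, and all 4 still passed (adjusted p at most 0.000809). Both combinations share the libraries of the high dose, so these comparisons are not independent. Between the combinations themselves 0 of 9 partners differed by edgeR, at adjusted or unadjusted p under 0.05, or by DESeq2, and 0.736% of all genes were lower and 0.73% higher (0.0125% and 0.0499% past a log2 FC of 1).

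At the lower doses of the single agents few partners moved. With 0.1 μM THZ531, 1 of the 9 partners was called, WDR5, at 106, 101 and 102 CPM and a log2 FC of 0.22 (edgeR adjusted p = 0.023), where 1.78% of all genes were higher and 4.31% lower (0.143% and 0.742% past a log2 FC of 1). The call rested on thin margins, since it was lost in 5 of the 21 fits that left out a library (adjusted p up to 0.110), without the filter on low counts and with mitochondrial scaling. With lapatinib and with nilotinib alone edgeR and DESeq2 called 0 of 9 partners, against 0.0561% of all genes lower and 0.256% higher with lapatinib and 0.0998% and 0.243% with nilotinib. Past a log2 FC of 1 these shares were 0.0125% and 0.0374%, and 0.0125% and 0.0249%. At an unadjusted p under 0.05, 0 partners passed with lapatinib and 1, KAT2A at a log2 FC of 0.14, with nilotinib.

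The combinations were also tested against the sum of their single agents. The interaction of lapatinib with 0.1 μM THZ531 was positive for KAT2B (0.39), TADA3 (0.49) and DR1 (0.61) and negative for YEATS2 (−0.98) and ZZZ3 (−0.37), where 28.2% of all genes had a positive and 32% a negative interaction. With nilotinib it was positive for KAT2B (0.48), TADA3 (0.39) and DR1 (0.60) and negative for KAT2A (−0.32), TADA2A (−3.43) and YEATS2 (−0.71), against 25.6% and 31.2%. These 5 and 6 of 9 partners are near the shares of all genes. The positive calls also depended on scaling: with library size alone 0 of 3 passed for lapatinib and 1 of 3, KAT2B, for nilotinib, and with mitochondrial scaling 0 passed for either. Past a log2 FC of 1 the interaction was called for 0 partners with lapatinib (6.7% of all genes positive, 18.3% negative) and for TADA2A alone with nilotinib (5.51% and 17.8%). From 0.1 to 1.0 μM THZ531, 5 partners were lower and 2 higher, against 35.9% and 34.3% of all genes (17.6% and 6.83% past a log2 FC of 1, with TADA2A and YEATS2 lower and 0 partners higher), among them YEATS2 at −1.07 and KAT2B at 0.75 (edgeR adjusted p = 2.42e-07 and 3.45e-09).

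Because KAT14 and PET117 share a start and 901 exonic bases, their counts were set side by side in each library. The shared bases are most of the 1151 exonic bases of PET117 and a smaller part of those of KAT14. PET117 was at 2.06, 2.17 and 1.90 CPM in DMSO and at 1.40, 1.79 and 1.57 CPM with lapatinib and THZ531. It was at 0.875, 1.29 and 1.29 CPM with nilotinib and THZ531 and at 1.03, 0.723 and 0.952 CPM with the high dose. The PET117 counts thus fell much less than those of KAT14, with log2 FCs of −0.36 (adjusted p = 0.0526), −0.83 (adjusted p = 0.000174) and −1.18 (adjusted p = 3.85e-06, edgeR). The log2 ratio of KAT14 to PET117 counts within a library, which needs no scaling, was 2.95 ± 0.11 in DMSO and 2.25 ± 0.28 with 0.1 μM THZ531 (SD, n = 3). It was −1.72 ± 0.15, −1.17 ± 0.13 and 0.26 ± 0.40 in the 3 strong treatments, so that PET117 had the larger count in both combinations. How reads in the shared bases were assigned is not given in the sources used here. The PET117 counts may therefore include reads of KAT14 transcripts or rest on the few unshared bases of PET117. The few KAT14 counts left in the strong treatments may likewise include reads of PET117 transcripts. The contrast between the genes and the depth of the KAT14 fall carry this limit. Of the 9 genes within 100 kb of KAT14, PET117 and OVOL2 were in the count table, and OVOL2 did not exceed 2 counts in any library. The same ratio of KAT14 to SGF29 went from 0.08 ± 0.04 in DMSO to −3.47 ± 0.17, −3.28 ± 0.41 and −2.27 ± 0.31.

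Levels can be compared between genes only per length of exon. In DMSO the order by CPM per kb was WDR5 at 24.2, TADA3 at 18.5, DR1 at 15.2, ZZZ3 at 10.0, SGF29 at 7.06, KAT2A at 5.85, KAT2B at 5.13, MBIP at 4.85, YEATS2 at 3.24, KAT14 at 3.15 and TADA2A at 0.203. YEATS2 (SD 0.436) and KAT14 (SD 0.0802) did not differ beyond their spread, nor did KAT2B (SD 0.294) and MBIP (SD 0.485). With lapatinib and THZ531, KAT14 at 0.0950 stood close to TADA2A at 0.0633 CPM per kb, and YEATS2 was at 1.68.

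The spans of the genes were set beside their changes. CDK12 and CDK13 are known for supporting transcription through long genes, where premature polyadenylation at intronic AATAAA signals can end transcripts early. The KAT14 gene spans 51.2 kb, near percentile 64.0 of tested genes, and holds 31 AATAAA hexamers on its strand, or 6.06 per 10 kb against a median of 7.49. KAT2B, YEATS2 and ZZZ3 have like spans of 114, 115 and 121 kb and hold 102, 100 and 128 of these hexamers. Their log2 FCs with lapatinib and THZ531 were 0.67, −0.95 and 0.03. SGF29 spans 37.9 kb and TADA2A 72.8 kb. Across 15410 genes Spearman's rho between span and log2 FC was −0.16 and −0.12 in the combinations with lapatinib and nilotinib and −0.13 with the high dose, as a description over genes of the same libraries. Across the 10 ATAC genes, with KAT14 among them, it was −0.26, −0.27 and −0.41. With 0.1 μM THZ531, lapatinib and nilotinib alone it was 0.04, 0.68 and −0.24, although no partner was called with either inhibitor alone. Values over 10 genes vary this widely, so no trend with span is read from them. The part of span or of these hexamers in the changes was not tested.

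The genes nearest to KAT14 in the size of their changes lay outside ATAC. Such nearness is set mostly by the 3 strong falls for which KAT14 was chosen. Only genes with falls about as deep could come near, so it does not show whether subunit genes follow KAT14. Over the 6 log2 FCs against DMSO, the smallest root mean square differences from KAT14 among the 10912 genes at a log2 CPM of 1 or more on average were those of KRCC1 (0.321), PRR14L (0.332), PAFAH2 (0.412), HOMEZ (0.450) and ZNF564 (0.456). KRCC1, on chromosome 2, was the nearest, at −4.61, −4.57 and −4.01 in the strong treatments and −1.17 with 0.1 μM THZ531. Pearson's r with KAT14 over 21 libraries was 0.987 to 0.995 for these 5, which were selected by the difference and not by r. As a description, r was 0.965 for SGF29, 0.910 for YEATS2, 0.733 for TADA2A, 0.707 for KAT2A and 0.413 for ZZZ3. It was 0.028 for WDR5, −0.224 for MBIP, −0.831 for TADA3, −0.859 for DR1 and −0.918 for KAT2B. All of these r values rest on TMM scaling and were not computed with the other scalings. With mitochondrial scaling, TADA3, MBIP and WDR5 stood below DMSO in both combinations, as did KAT2B with lapatinib and THZ531. The nearest subunit genes were TADA2A at a difference of 1.99, SGF29 at 2.25 and YEATS2 at 2.67.

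The sister complexes that share subunits with ATAC were described by their counts. Of 20 SAGA subunits outside ATAC, 19 were tested, and 12 were lower and 6 higher with lapatinib and THZ531, where 37.8% of all tested genes were lower and 34.3% higher, with a median log2 FC of −0.56. SUPT20H, a core structural subunit, fell by 2.97 on the log2 scale, ATXN7L1 by 2.18 and TAF6L by 1.09, while TAF5L rose by 1.64 and TAF10 by 0.74 (edgeR, adjusted p at most 2.46e-06). The TAF10 call was lost with mitochondrial scaling, at 0.06 (edgeR adjusted p = 0.755). With nilotinib and THZ531 the counts were 11 lower and 7 higher (37.3% and 33.7% of all genes) and with 1.0 μM THZ531 13 and 6 (36.8% and 33.1%), with medians of −0.38 and −0.52. The counts of higher SAGA genes were thus near the background, and they were 2 and 3 in the combinations with library size alone and 1, 1 and 0 in the 3 treatments with mitochondrial scaling. Against the same shares of all genes, of 9 COMPASS genes that work with WDR5, 6 were lower and 0 higher with each combination, and 7 and 0 with the high dose, with medians of −0.94, −0.78 and −1.22. The methyltransferases KMT2D, SETD1B and SETD1A had log2 FCs of −1.73, −1.55 and −1.52 with lapatinib and THZ531 (edgeR adjusted p at most 2.29e-06), and KMT2C was at 0.31 (adjusted p = 0.317). At an unadjusted p under 0.05 the count of higher COMPASS genes was also 0, and 0 by DESeq2.

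**Figure D4:**
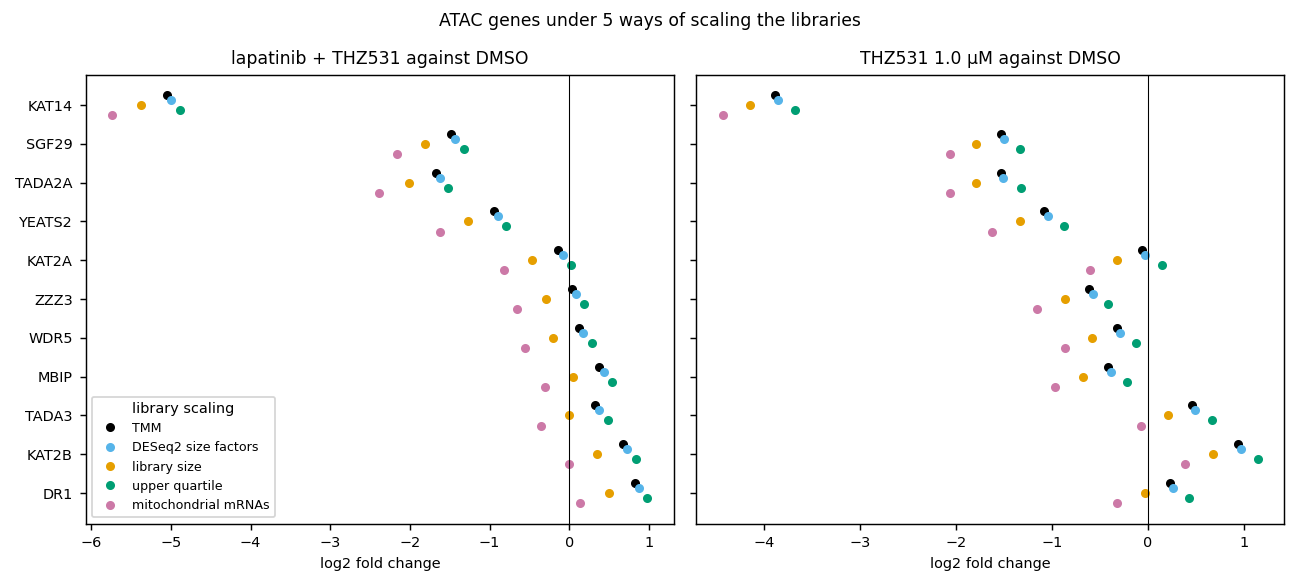
Log2 fold changes of KAT14, SGF29 and the 9 partners with lapatinib and THZ531 (left) and with 1.0 μM THZ531 (right) under 5 ways of scaling the libraries, 1 colour each. Scaling to mitochondrial mRNAs shifts all genes to the left by about 0.68 and 0.54, which carries KAT2B (to −0.00944), TADA3, ZZZ3, MBIP and WDR5 from above to below 0 on the left and leaves KAT14 lowest.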

How the data were processed

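PolyA-selected, unstranded 100-bp paired-end libraries of 21 Hs578T samples were analysed. The authors deposited unnormalized counts, 1 value per gene and library, made from reads aligned to GRCh38 with HISAT2 2.1.0 and counted with featureCounts (versions of other tools, annotation and the treatment of pairs are not given in the sources used here). Of 28395 gene IDs, 27725 matched RefSeq, which gave symbols, positions and promoter sequences (GRCh38.p14). Exon lengths and spans came from the GENCODE gene models. Counts were filtered with filterByExpr, scaled by TMM and fitted with edgeR 4.0.16 in R 4.3.3 (glmQLFit, 1 mean per group, glmQLFTest), with Benjamini-Hochberg adjustment over 16036 genes at 0.05. DESeq2 1.42.0, 4 other scalings, 2 other filters, the replicate block, fits of only the groups compared and leaving out each library were alternatives. CPM used the TMM library sizes, and log2 CPM a prior count of 2.

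The members and lists were chosen with earlier results of these data known. Named were all members, SGF29, genes within 100 kb of KAT14, the 5 profiles most like KAT14 and, from each list, up to 3 falls and 2 rises with lapatinib and THZ531. Replicates differed by more than sampling noise (chi-square per degree of freedom at least 7.78). Tests were run on simulated counts first.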

Additional observations from a re-analysis of the deposited data

Results flagged for a closer look

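For each of the results below, the combination departed from the sum of its single agents against DMSO, by the interaction term in edgeR (quasi-likelihood, Benjamini-Hochberg adjusted over 16036 genes, 3 libraries per group). All use the same DMSO and 0.1 μM THZ531 libraries for both inhibitors.

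With lapatinib, the log2 interaction was 0.39 for KAT2B (adjusted p = 0.00104), 0.49 for TADA3 (adjusted p = 0.000448) and 0.61 for DR1 (adjusted p = 0.0014). It was −0.98 for YEATS2 (adjusted p = 6.31e-05), −0.37 for ZZZ3 (adjusted p = 0.0336) and −1.69 for SGF29 (adjusted p = 1.96e-09). With library size or mitochondrial scaling none of the 3 positive values passed (edgeR adjusted p at least 0.0817), and KAT2B and TADA3 stood below 0 with the latter. The ZZZ3 value was the weakest of these, and it did not pass in 7 of 21 fits that left out a library.

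With nilotinib, the interaction was 0.48 for KAT2B (adjusted p = 0.000151), 0.39 for TADA3 (adjusted p = 0.00391) and 0.60 for DR1 (adjusted p = 0.00175). It was −0.32 for KAT2A (adjusted p = 0.0044), −3.43 for TADA2A (adjusted p = 0.00274), −0.71 for YEATS2 (adjusted p = 0.00169), −2.02 for SGF29 (adjusted p = 1.76e-10) and −1.05 for PET117 (adjusted p = 0.000654). With library size only the KAT2B value among the 3 positive ones passed (edgeR adjusted p = 0.0367), and with mitochondrial scaling none did (at least 0.620). For TADA2A, the nilotinib libraries that enter the term ranged from 0.525 to 3.98 CPM.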

How the results depend on the processing

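The 5 scalings moved the counts of partners most. With library size alone, 5 partners were lower and 2 higher with lapatinib and THZ531, 4 and 2 with nilotinib and THZ531, and 2 lower in each combination past a log2 FC of 1. With mitochondrial mRNAs, 6 were lower and 0 higher, and 5 and 0, again with 2 past a log2 FC of 1, and 1 was higher with 1.0 μM THZ531. Upper-quartile scaling gave 3 partners lower with 1.0 μM THZ531, 0 lower and 1 higher past a log2 FC of 1. At least 10 counts in every library, which drops TADA2A, left 1 lower in each combination and 0, 0 and 1 lower past a log2 FC of 1 in the 3 strong treatments. With 0.1 μM THZ531, 0 partners were higher with mitochondrial scaling or no filter and 2 with DESeq2. For the combinations against 1.0 μM THZ531, 2 were lower with library size (lapatinib), 0 with mitochondrial scaling (nilotinib) and 0 in both when only the groups compared were fitted. From 0.1 to 1.0 μM THZ531, 0, 5 and 1 were lower past a log2 FC of 1 (upper quartile, mitochondrial, 10 counts) and 0 higher with mitochondrial scaling. The lapatinib interaction gave 4 lower with library size and mitochondrial scaling, 1 lower with RLE, upper quartile and DESeq2, 0 higher and 1 lower past a log2 FC of 1 with library size and mitochondrial scaling. The nilotinib interaction gave 5 lower with library size and mitochondrial scaling, 1 and 0 higher, and 2 (mitochondrial) and 0 (10 counts) lower past a log2 FC of 1. Values with the other sign under mitochondrial scaling were, with lapatinib and THZ531, KAT2B −0.00944, TADA3 −0.36, ZZZ3 −0.65, MBIP −0.31, WDR5 −0.56, HAT1 −0.00724 and DRAP1 −0.0283, with nilotinib and THZ531 TADA3 −0.23, ZZZ3 −0.63, MBIP −0.33, WDR5 −0.43 and DRAP1 −0.11, with 1.0 μM THZ531 TADA3 −0.0751, and in the interactions KAT2B −0.15 and TADA3 −0.0534 (lapatinib) and TADA3 −0.0506 (nilotinib). With library size they were TADA3 −0.00788, ZZZ3 −0.30 and WDR5 −0.21 with lapatinib and THZ531, and ZZZ3 −0.30, MBIP −0.00846 and WDR5 −0.11 with nilotinib and THZ531. The cause of the shift between scalings was not tested.

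Leaving out 1 library gave 0 to 1 partners higher with 0.1 μM THZ531, 1 to 3 lower and 0 to 1 lower past a log2 FC of 1 with lapatinib and THZ531, 1 to 2 past a log2 FC of 1 with 1.0 μM THZ531 and 0 to 2 from 0.1 to 1.0 μM. It gave 1 to 2 lower for lapatinib and THZ531 against 1.0 μM THZ531, and 1 to 2 lower and 0 to 1 past a log2 FC of 1 for the lapatinib interaction. MBIP with nilotinib and THZ531 lost its call without DMSO replicate 2 (edgeR adjusted p = 0.0778).

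Replicate numbers did not pair the libraries: the correlation of deviations between same-numbered libraries ran from −0.72 to 0.81, and 8 of 21 libraries correlated best with their own number. With the replicate block 2 partners were lower and 4 higher with lapatinib and THZ531, as without it, and KAT14 with 0.1 μM THZ531 had an adjusted p of 1.25e-04 (edgeR).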

Other observations

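Acetyltransferases outside ATAC and SAGA, and other proteins with a YEATS domain, were described by counts in the same fit. Of 8 other histone acetyltransferases, 3 were lower and 3 higher with each combination, and 6 were lower and 1 higher with 1.0 μM THZ531, with median log2 FCs of 0.24, 0.14 and −0.57 against −0.01 for all tested genes. Of all tested genes 37.8%, 37.3% and 36.8% were lower and 34.3%, 33.7% and 33.1% higher in these treatments, so 3 of 8 in either direction is near the background. With lapatinib and THZ531 the count of higher genes was 1, 5 and 0 with library size, upper-quartile and mitochondrial scaling, and 1 without DMSO replicate 1 or without replicate 2 or 3 of the combination. With nilotinib and THZ531 it was 1 and 0 with library size and mitochondrial scaling, and 1 without DMSO replicate 3 or replicate 3 of the combination. KAT8 and KAT5, of the MYST family, had log2 FCs of −1.66 and −1.46 with lapatinib and THZ531 and of −1.80 and −1.73 with the high dose, and they were called lower in each (edgeR adjusted p at most 9.56e-10 with lapatinib and THZ531). The paralogs EP300 and CREBBP went opposite ways with lapatinib and THZ531, at −0.88 (SE 0.26, adjusted p = 0.00559) and 0.77 (SE 0.27, adjusted p = 0.0144), and the rise of CREBBP was not called with library size (adjusted p = 0.151) or mitochondrial scaling (adjusted p = 0.787). HAT1, which acetylates newly made histone H4, rose by 0.67, and with mitochondrial scaling it stood at −0.01.

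All 3 other YEATS domain genes, YEATS4, MLLT1 and MLLT3, were lower with lapatinib and THZ531 (37.8% of all genes), at −1.56, −0.62 and −0.44, and with 1.0 μM THZ531 (36.8%). With nilotinib and THZ531 2 of the 3 were lower (37.3% of all genes), and MLLT3 stood at −0.36 (edgeR adjusted p = 0.0779). With lapatinib and THZ531 MLLT3 was not called with RLE or upper-quartile scaling or when only the groups compared were fitted (edgeR adjusted p = 0.0561, 0.150 and 0.0745). DRAP1, the partner of DR1 in NC2, was higher by 0.65, 0.50 and 0.53 in the 3 strong treatments, and it stood at −0.03, −0.11 and 0.00 with mitochondrial scaling.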
